A study of Mus musculus with 6 samples.

Results

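The small leucine-rich proteoglycans are a family of secreted proteins of the extracellular matrix, and 10 genes of this family, Dcn, Bgn, Lum, Fmod, Omd, Ogn, Prelp, Aspn, Podn and Podnl1, were chosen by name from the 55471 genes of a count table of mouse osteoblast RNA. Each of the 10 genes was lower on average in the libraries labelled TCKO (triple conditional knockout of Tet1, Tet2 and Tet3) than in those labelled WT, and 7 of them passed the test for a lower level. The largest differences were those of Omd (osteoadherin), which fell 11.2-fold (log2 fold change -3.49 ± 0.41, SE, n = 3 per genotype), and Podnl1, which fell 8.53-fold (-3.09 ± 0.15). Bgn (biglycan), the family member with the highest level in both genotypes, was 1.46-fold lower (-0.55 ± 0.11).

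RNA was sequenced from primary osteoblasts of the skull cap (calvaria) of C57BL/6 mice aged 3 days, after a short culture. The libraries labelled TCKO came from a conditional knockout of all 3 Tet genes, in which the floxed alleles Tet1fl/fl, Tet2fl/fl and Tet3fl/fl were targeted by Prx1-Cre. These genes encode enzymes that oxidise the methyl group of methylated cytosine. Libraries labelled WT came from mice of the wild type genotype, and whether these carried floxed alleles without Cre was not given in the sources used here. Each genotype had 3 libraries, and the sources used here do not state whether these came from separate mice, so the p-values measure the spread between these libraries. Prx1-Cre is active in the early mesenchyme of the limbs and of part of the skull, so deletion was not restricted to osteoblasts and began before they formed.

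A small leucine-rich proteoglycan has a protein core of repeated leucine-rich motifs, which curves into an arch and binds fibrillar collagen. Many members also carry chains of chondroitin, dermatan or keratan sulfate, long sulfated sugars that are built on the core in the Golgi. In bone, tendon, cartilage and skin these proteins govern the width and spacing of collagen fibrils, and several of them bind growth factors of the TGF-β family or cell surface receptors. Biglycan is among the most abundant proteoglycans of bone matrix, and mice without it have low bone mass. The family is sorted into classes by sequence: class I holds Dcn, Bgn and Aspn, class II holds Lum, Fmod, Prelp and Omd, class III holds Ogn, and class V holds Podn and Podnl1.

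Several family genes lie side by side in the genome, and the 4 members of such clusters that passed the test with a fall of more than 2-fold, Fmod and Prelp on chromosome 1 and Omd and Ogn on chromosome 13, are shown here by the 250 bases that precede their start. The sequences are those of RefSeq in the build GRCm38.p6, printed 5′ to 3′ on the strand of the gene, with each CpG dinucleotide, the usual site of cytosine methylation, in capitals.
Fmod, chr1:134037004-134037253, plus strand: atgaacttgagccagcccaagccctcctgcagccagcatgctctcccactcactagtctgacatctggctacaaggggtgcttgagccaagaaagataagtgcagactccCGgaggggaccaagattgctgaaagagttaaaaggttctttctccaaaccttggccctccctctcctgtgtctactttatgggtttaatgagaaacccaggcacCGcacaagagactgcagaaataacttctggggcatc
Prelp, chr1:133921402-133921651, minus strand: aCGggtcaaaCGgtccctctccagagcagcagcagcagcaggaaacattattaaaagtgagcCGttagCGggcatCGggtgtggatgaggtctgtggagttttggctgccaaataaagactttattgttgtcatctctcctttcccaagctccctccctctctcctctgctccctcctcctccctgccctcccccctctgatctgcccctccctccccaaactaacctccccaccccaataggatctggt
Omd, chr13:49582212-49582461, plus strand: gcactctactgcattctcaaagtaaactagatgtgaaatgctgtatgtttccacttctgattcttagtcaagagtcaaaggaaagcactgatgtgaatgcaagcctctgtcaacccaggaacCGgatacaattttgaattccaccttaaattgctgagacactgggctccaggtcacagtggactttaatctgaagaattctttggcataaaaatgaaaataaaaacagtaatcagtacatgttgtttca
Ogn, chr13:49607765-49608014, plus strand: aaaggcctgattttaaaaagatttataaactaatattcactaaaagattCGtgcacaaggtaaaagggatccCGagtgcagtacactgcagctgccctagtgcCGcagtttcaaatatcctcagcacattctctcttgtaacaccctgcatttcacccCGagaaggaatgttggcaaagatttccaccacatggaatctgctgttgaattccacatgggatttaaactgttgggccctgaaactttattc

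Each of these 4 windows held fewer CpG dinucleotides than the median promoter. There was 1 in Omd, 2 in Fmod, 4 in Ogn and 5 in Prelp, against a median of 6 over 32851 promoters of 27025 genes. A promoter entry was matched for 7 of the 10 members, with 8 starts in all, and the median over these was 4.5. Aspn had 2 CpG dinucleotides, Bgn had 7, and the 2 starts of Podn had 7 and 32. As a share of all promoters, 18.8% held as few CpG dinucleotides as Omd or fewer, and 29% as few as Fmod and Aspn or fewer. This share was 44.4% for Ogn and 49.6% for Prelp, near the middle, and 57% for Bgn and the other start of Podn. At the other end, 96% held no more than the CpG-rich start of Podn. The motif ACCACA, the core that RUNX proteins recognise, was sought on both strands and occurred in 1 of the 8 windows, that of Ogn, which is 12.5%, against 14% of all promoters. TATAAA, also sought on both strands, occurred in Aspn and in Ogn, which is 25% of the windows against 12.4% of all promoters, and the 2 matches in Ogn overlap. These counts describe the letters of the windows and nothing about binding or methylation in these cells.

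Depth and the likeness of the replicates were read first. Total counts ranged from 8019999 to 10177214 per library, and 3 counts, a true level that can still give a count of 0, corresponded to 0.299 to 0.373 CPM (counts scaled to a common library size with TMM factors). All 10 members were above this floor in all 6 libraries, and all 10 passed the filter on low counts that left 13826 tested genes. Of the targeted genes Tet1 was lower (log2 fold change -0.97, edgeR adjusted p = 0.00648), Tet2 gave -0.14 (adjusted p = 0.545) and Tet3 was higher (0.51, adjusted p = 0.00745). The counts span whole genes and cannot show the loss of single exons, so every direction below rests on the labels of the libraries. Replicates 1 and 2 resembled each other much more than replicate 3 in both genotypes. Their chi-square divided by its degrees of freedom was 1.69 (WT) and 2.04 (TCKO), against 16.5 to 23.3 for pairs with replicate 3. Whether replicates 1 and 2 are independent samples is not given in the sources used here, so fits with them summed are also reported. The library labelled TCKO replicate 3 carried the female pattern of Xist and Ddx3y and the other 5 libraries the male one. Mitochondrial genes took 2.22% and 2.47% of the counts of replicate 3 and 1.11% to 1.24% elsewhere.

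The first question was how much of each proteoglycan transcript WT osteoblasts contained. Levels of different genes were compared per length, as RPKM (counts per kilobase of exon, scaled like CPM). Biglycan stood highest, at 856 ± 46.2 RPKM (SD, n = 3), and ranked between 37 and 58 among all genes in the 3 WT libraries. Fmod (fibromodulin) followed at 529 ± 149 RPKM and Lum (lumican) at 295 ± 116 RPKM. Next came Ogn (osteoglycin, or mimecan) at 116 ± 20.4, Prelp at 74.9 ± 26.5, Aspn (asporin) at 55.9 ± 18.0 and Dcn (decorin) at 36.8 ± 15.8 RPKM. Podnl1 at 23.1 ± 3.20, Omd at 15.4 ± 5.18 and Podn (podocan) at 7.60 ± 1.01 RPKM closed the order. The WT libraries overlapped between the neighbours Fmod and Lum, Prelp and Aspn, Aspn and Dcn, and Dcn and Podnl1. Compared within a library, however, Fmod was above Lum, Prelp above Aspn and Aspn above Dcn in all 3 WT libraries, and Dcn was above Podnl1 in 2. In CPM, without scaling by length, Dcn and Aspn changed places.

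In the libraries labelled TCKO the order was different below biglycan. Bgn stayed first, at 585 ± 63.0 RPKM, and its rank among all genes was between 73 and 88. Lumican, at 167 ± 85.0 RPKM, had a higher mean than fibromodulin, at 138 ± 11.7 RPKM, but it was above it in only 2 of the 3 libraries. The TCKO libraries overlapped between the neighbours Lum and Fmod, Ogn and Aspn, Aspn and Dcn, and Dcn and Prelp. Within a library Ogn was above Aspn in all 3, and for the other pairs the order held in 2 of 3. The ratio of Lum to Fmod in RPKM was 0.565, 0.610 and 0.456 in WT replicates 1, 2 and 3 and 1.65, 1.63 and 0.453 in TCKO replicates 1, 2 and 3. The ratio was thus reversed in TCKO replicates 1 and 2 and was as in WT in TCKO replicate 3. Omd, which was ninth in WT, was last in TCKO at 1.38 ± 0.722 RPKM, and Podn at 3.56 ± 0.300 RPKM stood above Podnl1 at 2.71 ± 0.417 RPKM. Fmod ranked between 74 and 138 among all genes in WT and between 331 and 395 in TCKO.

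**Figure D1:**
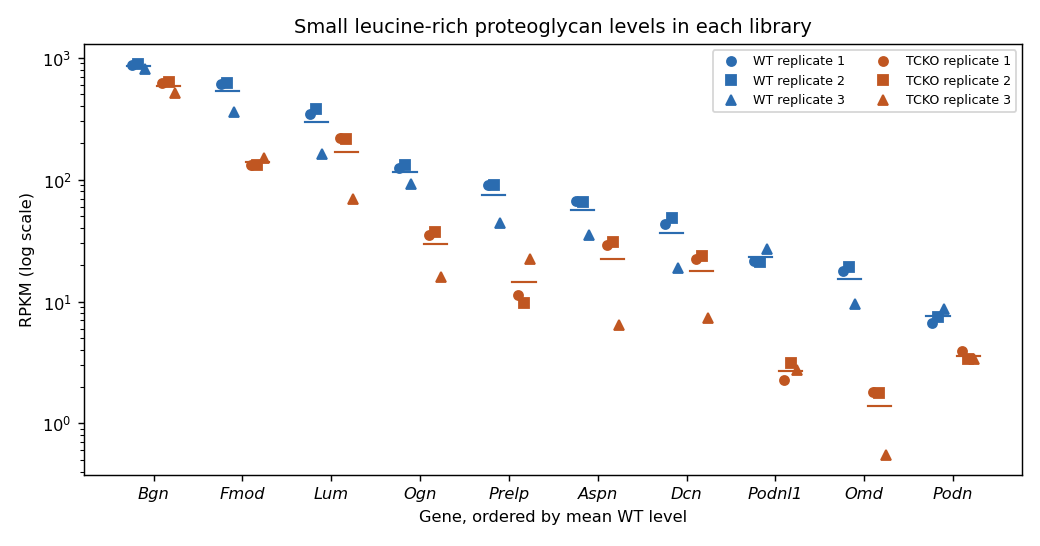
RPKM (log axis) of each of the 10 proteoglycan genes in every library, with circles, squares and triangles for replicates 1, 2 and 3, blue for WT, orange for TCKO and a line at each mean. The genotypes overlap for Dcn and Lum and are separate for the other 8 genes, and replicate 3 of both genotypes lies lowest for Bgn, Dcn, Lum, Aspn, Omd and Ogn.

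The main comparison asked which members differed between the genotypes. The members were chosen with earlier results of these data known, so their shares beside those of all tested genes are a description. With an adjusted p under 0.05 (edgeR quasi-likelihood test, Benjamini-Hochberg adjustment over all tested genes), 7 of the 10 members were lower in the libraries labelled TCKO, or 70%, where 8.63% of all tested genes were lower. None was higher (0 of 10), also at an unadjusted p under 0.05 and with DESeq2, where 9.07% of all tested genes were higher. A fall of more than 2-fold that passed the test was seen for 6 members, where 3.19% of all tested genes fell and 3.16% rose by that much. In 8 of the 10 members every TCKO library was below every WT library in CPM, which held for 18.9% of all tested genes. The median log2 fold change was -1.64 over the members and 0.00 over all tested genes. With the replicate number as a block in the model, libraries of the same number were treated as pairs. The check of this pairing did not tell numbers 1 and 2 apart, and the libraries of number 3 differ in sex. All 10 members were lower in this fit with an adjusted p under 0.05, where 11.5% of tested genes were. With the block and replicates 1 and 2 of each genotype summed, 8 were, all but Bgn (adjusted p = 0.159) and Prelp (0.0741), where 4.09% of tested genes were. These are bulk libraries, in which fewer cells of a type and less RNA per cell cannot be told apart.

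**Figure D2:**
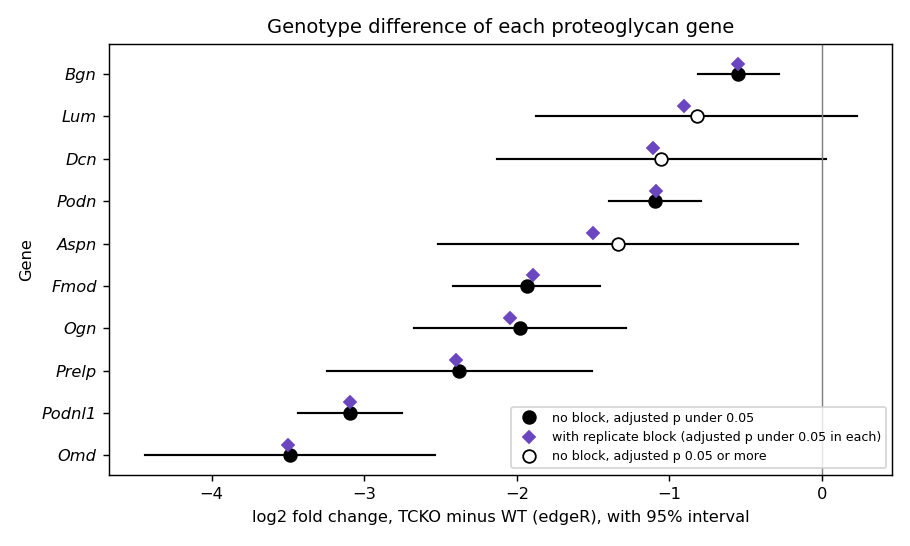
log2 fold change of each member, TCKO minus WT, from edgeR with its 95% interval (circles, filled where the adjusted p was under 0.05) and with the replicate number as a block (diamonds). The values run from -0.55 for Bgn to -3.49 for Omd, and the intervals of Dcn and Lum include 0.

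Biglycan is the class I member with the strongest tie to bone. Its gene is X-linked (ENSMUSG00000031375, chrX:73483602-73495933, plus strand). The 3 WT libraries gave 5293, 5463 and 4912 CPM and the 3 TCKO libraries 3755, 3827 and 3128 CPM. All TCKO values lay below all WT values, at 3569.7 ± 384 against 5223 ± 282 CPM (SD, n = 3). The log2 fold change was -0.55 ± 0.11 (SE, 95% interval -0.81 to -0.28), with an edgeR adjusted p of 0.0153, the smallest difference of the family. It no longer passed without WT replicate 1 (adjusted p = 0.0689), WT replicate 2 (0.0759) or TCKO replicate 1 (0.0583), nor with replicates 1 and 2 of each genotype summed (0.210). Without the female library, TCKO replicate 3, the log2 fold change was -0.46 (adjusted p = 0.00548).

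Decorin binds collagen and TGF-β and restrains receptor tyrosine kinases. Dcn (ENSMUSG00000019929, chr10:97479609-97518143, plus strand) stood at 250.4, 284 and 111 CPM in WT and 129.6, 139 and 43.1 CPM in TCKO. WT replicate 3 was lower than TCKO replicates 1 and 2, so the genotypes overlapped. The log2 fold change of -1.05 ± 0.47 (SE, 95% interval -2.13 to 0.02) did not pass the test (edgeR adjusted p = 0.162). Under the replicate block the value was -1.11 and the adjusted p 0.000568.

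Asporin resembles decorin but has a run of aspartate in place of a sugar chain. Aspn (ENSMUSG00000021388, chr13:49544443-49567565, plus strand) stood at 156, 156 and 82.8 CPM in WT and 69.1, 72.7 and 15.0 CPM in TCKO. The genotypes did not overlap, and TCKO replicate 3 was far below the other TCKO libraries. Its log2 fold change was -1.34 ± 0.51 (SE, 95% interval -2.51 to -0.16) with an edgeR adjusted p of 0.113, which did not pass. It was -0.89 (adjusted p = 0.0461) without TCKO replicate 3 and -1.50 (adjusted p = 0.00613) with the replicate block.

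Fibromodulin, a class II member with keratan sulfate chains, binds collagen in tendon, cartilage and bone and helps fibrils mature. Fmod (ENSMUSG00000041559, chr1:134037254-134048277, plus strand) stood at 2027, 2041 and 1181 CPM in WT and 437, 434 and 502 CPM in TCKO. WT replicate 3 was the lowest WT library and was still far above every TCKO library, and the TCKO libraries differed little from each other. Fmod fell 3.82-fold, by a log2 fold change of -1.93 ± 0.21 (SE, 95% interval -2.42 to -1.45), with an edgeR adjusted p of 0.00100. In absolute terms its fall was the largest of the family after length was taken into account, from 529 ± 149 to 138 ± 11.7 RPKM.

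Prelp, its neighbour on chromosome 1 (ENSMUSG00000041577, chr1:133910304-133921414, minus strand), encodes a protein that binds collagen and, through a basic tail, heparan sulfate of basement membranes. Its counts were 2696, 3263 and 1322 in WT and 356, 282 and 717 in TCKO, or 326, 326 and 160.3 CPM against 40.6, 35.1 and 80.4 CPM. The genotypes did not overlap, but replicate 3 was the lowest library in WT and the highest in TCKO. For Prelp the log2 fold change was -2.38 ± 0.38 (SE, 95% interval -3.25 to -1.51), with an edgeR adjusted p of 0.00505. It did not pass with replicates 1 and 2 summed (adjusted p = 0.0981). The gene shares 350 exon bases with the antisense gene Gm15851, which had 1 count over all libraries, and strand use in counting was not given in the sources used here.

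Osteoadherin is a keratan sulfate proteoglycan that is found mainly in mineralised tissue, where it binds hydroxyapatite and integrins. Omd (ENSMUSG00000048368, chr13:49582462-49592822, plus strand) had 328, 430 and 176 counts in the WT libraries and 36, 32 and 11 in TCKO, or 39.7, 42.9 and 21.3 CPM against 4.11, 3.98 and 1.23 CPM. Every TCKO library was well below every WT library, and within each genotype replicate 3 was the lowest. The log2 fold change of -3.49 ± 0.41 (SE, 95% interval -4.44 to -2.54) was the largest of the family, with an edgeR adjusted p of 0.00151.

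Lumican, a class II member best known from the cornea and also made by osteoblasts, had 1 of the smaller fold changes of the family. Lum (ENSMUSG00000036446, chr10:97565128-97572703, plus strand) stood at 847, 922 and 399 CPM in WT and 534, 524 and 168 CPM in TCKO. The genotypes overlapped, because WT replicate 3 was below TCKO replicates 1 and 2. The log2 fold change of -0.82 ± 0.45 (SE, 95% interval -1.87 to 0.23) did not pass the test (edgeR adjusted p = 0.256). Under the replicate block it was -0.90 (adjusted p = 0.00275).

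Osteoglycin, the class III member, is secreted by bone and muscle and was first isolated from bone. Ogn (ENSMUSG00000021390, chr13:49608046-49624501, plus strand) stood at 319.5, 335 and 238 CPM in WT and 91.0, 95.2 and 40.6 CPM in TCKO. The genotypes were widely apart, and TCKO replicate 3 was far below the other TCKO libraries. Ogn fell 3.94-fold, by a log2 fold change of -1.98 ± 0.30 (SE, 95% interval -2.68 to -1.28), with an edgeR adjusted p of 0.00435. With replicates 1 and 2 summed the adjusted p was 0.0697.

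The class V members, podocan and its relative Podnl1, form a distant branch of the family. Podnl1 (ENSMUSG00000012889, chr8:84125989-84132527, plus strand) had 626, 751 and 784 counts in the WT libraries and 71, 89 and 86 in TCKO, or 75.8, 74.9 and 95.04 CPM against 8.10, 11.1 and 9.65 CPM. In WT, replicate 3 was above the other libraries, and in TCKO replicate 3 lay between the other libraries. Every TCKO library was far below every WT library. The log2 fold change of -3.09 ± 0.15 (SE, 95% interval -3.43 to -2.75) had the lowest adjusted p of the family (4.29e-05, edgeR), and the highest adjusted p over 16 alternative settings was 0.00828. Podn (ENSMUSG00000028600, chr4:108014791-108096445, minus strand) encodes podocan, first described in podocytes of the kidney. It stood at 28.6, 31.7 and 37.1 CPM in WT and 16.7, 14.5 and 14.4 CPM in TCKO, again with no overlap. Its log2 fold change was -1.09 ± 0.13 (SE, 95% interval -1.39 to -0.80), with an edgeR adjusted p of 0.00151. The span of Podn overlaps that of Scp2 on the same strand with 0 shared exon bases, and Scp2 itself gave a log2 fold change of -0.39 (adjusted p = 0.0249).

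The summed level of the family was lower in the libraries labelled TCKO. The 10 genes together gave 9364, 9676 and 7237 CPM in WT and 5084, 5156 and 4003 CPM in TCKO, with all TCKO libraries below all WT libraries. They took 0.864% ± 0.126 of all counts in WT and 0.478% ± 0.0617 in TCKO (SD, n = 3). Per length, the sum was 2010.4 ± 390.5 RPKM in WT and 982 ± 165 RPKM in TCKO. The make-up of this sum also differed. Biglycan made up 39.5%, 39.4% and 51.6% of it in WT and 57.4%, 58.0% and 64.8% in TCKO. Fibromodulin made up 26.0% ± 2.71 in WT and 14.5% ± 4.01 in TCKO. Osteoglycin took 5.79% ± 0.138 in WT and 2.91% ± 0.793 in TCKO, Prelp 3.64% ± 0.696 and 1.58% ± 1.06. Lumican (14.3% ± 3.34 in WT, 16.3% ± 6.57 in TCKO) and decorin (1.77% ± 0.490 and 1.73% ± 0.696) held shares that differed by less than the spread between replicates. These shares are a description of parts of 1 sum, in which a fall of 1 member raises the share of the others.

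**Figure D3:**
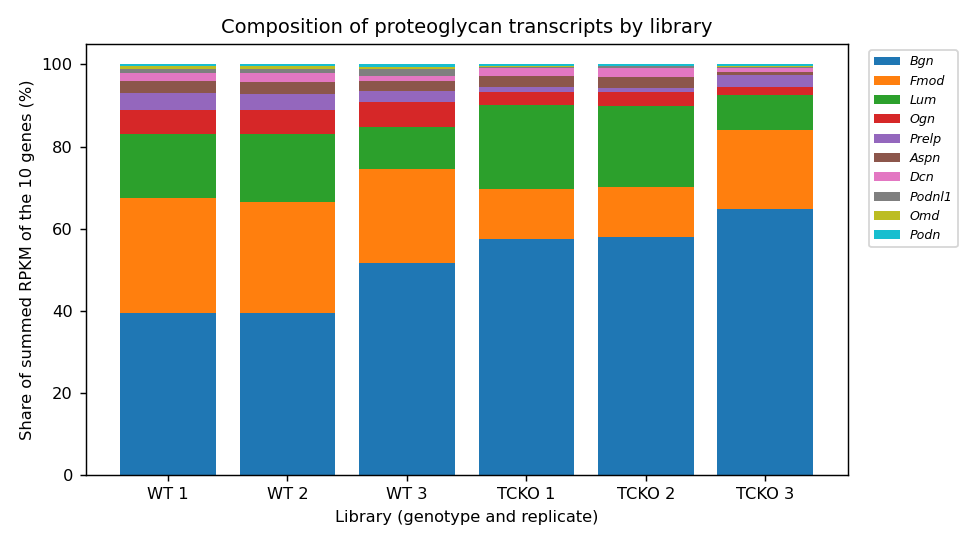
Share of each member in the summed RPKM of the 10 genes, as stacked bars that add up to 100% in each library. Biglycan (blue) takes 39.4% to 51.6% in WT and 57.4% to 64.8% in TCKO, and fibromodulin (orange) takes 22.9% to 27.9% and 12.1% to 19.2%.

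Replicate 3 differed from replicates 1 and 2 in ways that were not alike for all members. On the scale of log2(CPM + 2), the WT library of replicate 3 minus the mean of replicates 1 and 2 was -1.25 for Dcn, -1.14 for Lum and -0.90 for Aspn, and the same difference in TCKO was -1.59, -1.64 and -2.10. For Dcn and Lum the shift of replicate 3 was thus larger in both genotypes than the fitted genotype difference, and for Aspn it was smaller in WT and larger in TCKO. Fmod and Prelp shifted in opposite directions, by -0.78 and -1.02 in WT and by 0.20 and 1.05 in TCKO. Podn (0.28 and -0.10) and Podnl1 (0.33 and 0.02) shifted little.

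Within libraries of the same replicate number, all 10 members were lower in TCKO in each of the 3 numbers. The share of all tested genes lower in each number was not computed. It is at least the 18.9% in which every TCKO library was below every WT library. The count of members is thus a description. For decorin the difference in log2(CPM + 2) was -0.94, -1.02 and -1.32 in replicates 1, 2 and 3, and for lumican it was -0.66, -0.81 and -1.23. These 2 genes, whose genotypes overlapped across all libraries, were thus lower within each number. Biglycan gave -0.50, -0.51 and -0.65. For other members replicate 3 departed from the rest. Prelp gave -2.95 and -3.14 in replicates 1 and 2 and -0.98 in replicate 3, and Fmod gave -2.21, -2.23 and -1.23. Aspn went the other way, with -1.16, -1.08 and -2.32. A difference between the numbers was not tested, since each number has 1 library per genotype. In number 3 the WT library carried the male pattern of Xist and Ddx3y and the TCKO library the female one. Sex and genotype cannot be told apart in that number.

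**Figure D4:**
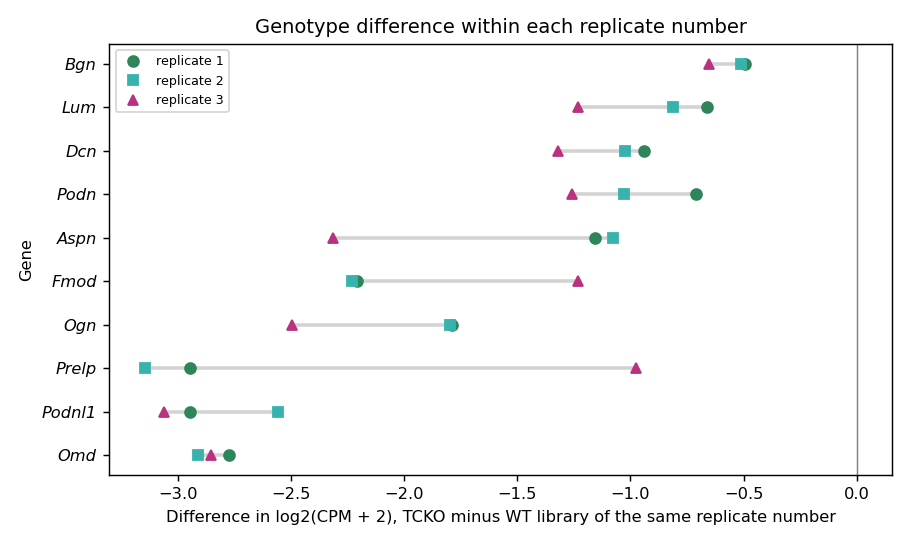
Difference in log2(CPM + 2) between the TCKO and the WT library of the same replicate number, for each member, with circles, squares and triangles for replicates 1, 2 and 3 and a grey line from the lowest to the highest. All points lie below 0, and replicate 3 stands farthest from the other 2 for Prelp, Aspn and Fmod. In replicate 3 the WT library is male and the TCKO library female.

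In 3 clusters, family genes share a stretch of chromosome, and the nearest tested genes on each side were read beside them. On chromosome 13, Aspn, Omd and Ogn lie with Ecm2, a related gene of the matrix, within the span of Cenpp, which is on the other strand and had 38 counts over all libraries. Ecm2 had 37, 73 and 27 counts in the WT libraries and 8, 9 and 9 in the TCKO libraries, and its log2 fold change was -2.30 ± 0.37 (edgeR adjusted p = 0.00553). Ecm2 entered the test through the WT libraries, where it was higher, so its call adds no support. The members Aspn, Omd and Ogn were lower on average, Omd and Ogn past the test. The 6 nearest tested genes outside, Bicd2, Ippk, Tes3-ps, Nol8, Iars and Fbxw17, ranged from -0.21 to 0.23. None of these 6 passed, also at an unadjusted p under 0.05 and with DESeq2. On chromosome 1, Prelp and Fmod lie next to Optc (opticin), which had only 9, 14 and 16 counts in the WT libraries and 22, 15 and 23 in TCKO and gave 0.65 (adjusted p = 0.190). Of the 6 nearest tested genes there, Atp2b4, a calcium pump, rose by 0.60 (adjusted p = 0.00421), and the others, Gm38394, Zc3h11a, Btg2, Ppfia4 and Tmem183a, ranged from -0.14 to 0.24 and did not pass. On chromosome 10, Dcn and Lum lie with Kera and Epyc. Epyc (epiphycan, of cartilage) gave -0.81 (adjusted p = 0.301) on 6 to 35 counts, and Kera (keratocan, of the cornea) had at most 2 counts and was not tested. The 6 nearest tested genes there ranged from -0.26 to 0.15, and none passed with edgeR or DESeq2 (1 at an unadjusted p under 0.05). The genes with no family neighbour were read in the same way. Beside Bgn, 1 of the 6 nearest tested genes, the phosphatase gene Dusp9, was higher by 1.19 (edgeR adjusted p = 0.0115). Of the 6 beside Podn and the 6 beside Podnl1 none passed with edgeR or DESeq2 (1 and 0 at an unadjusted p under 0.05). With the replicate block 0610037L13Rik beside Podn did (adjusted p = 0.0179). Scp2, whose span overlaps that of Podn, is not among the 6 beside it. Scp2 was lower, at -0.39 (adjusted p = 0.0249 with edgeR and 0.0331 with DESeq2). Of all tested genes 8.63% were lower and 9.07% higher with edgeR.

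**Figure D5:**
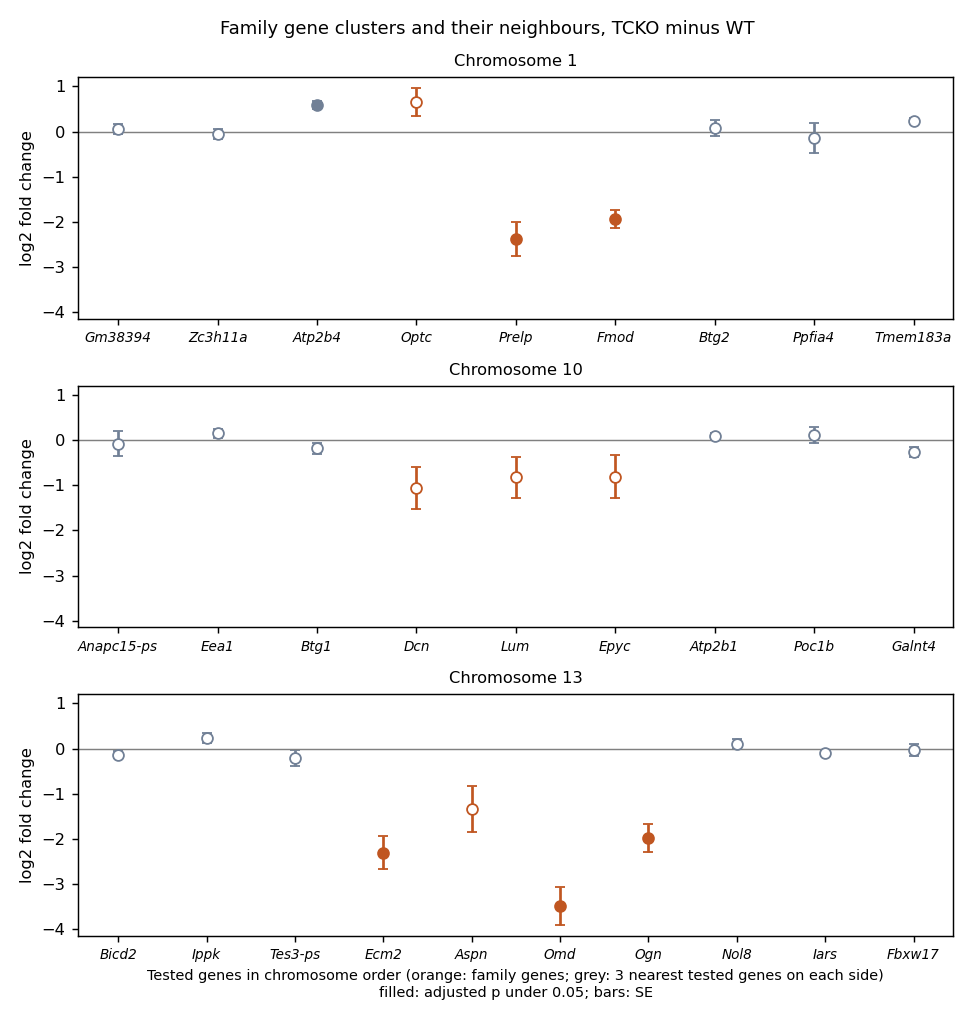
log2 fold change (TCKO minus WT, with SE) of the tested family genes (orange) in the 3 clusters and of the 3 nearest tested genes on each side (grey), in chromosome order with equal spacing, filled where the adjusted p was under 0.05. On chromosome 13 the 4 family genes lie between -3.49 and -1.34 and the 6 grey genes between -0.21 and 0.23.

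The other relatives had low counts or did not pass the test, apart from Ecm2. Of 8 further family genes, 5 were tested and 1 (20%), Ecm2, was lower, beside 8.63% of all tested genes. Ecm2 entered the test through the WT libraries, where it was higher. Tsku (tsukushi, which binds BMP and Wnt ligands) was the only one at a level like that of the members, at 83.0 ± 12.98 CPM in WT and 84.4 ± 20.3 CPM in TCKO, and its log2 fold change of 0.03 ± 0.18 did not pass (edgeR adjusted p = 0.940). Chadl gave -0.55 (adjusted p = 0.390) on 9 to 22 counts, and it shares 1023 exon bases with the antisense gene L3mbtl2. Chad (chondroadherin) had 1 to 5 counts and Nyx (nyctalopin) 1 to 4, near the floor, and neither was tested.

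The next list held 32 genes that build, epimerise or sulfate the sugar chains. Of the 28 tested, 5 were lower and 5 higher, each 17.9%, beside the 8.63% and 9.07% of all tested genes, with a median log2 fold change of -0.09. Xylt1, the xylosyltransferase that places the first sugar on the core protein, stood at 26.5, 27.8 and 32.7 CPM in WT and 14.0, 8.08 and 9.65 CPM in TCKO. The groups did not overlap, and its log2 fold change was -1.45 ± 0.20 (edgeR adjusted p = 0.00285), and it was the only gene of the list to fall by more than 2-fold. Xylt2, which does the same step, gave -0.10 (adjusted p = 0.518), and Fam20b, the xylose kinase, -0.10 (adjusted p = 0.572). Csgalnact2, which starts a chondroitin chain, was lower, at -0.64 (adjusted p = 0.00491), as was Chst14, the dermatan sulfotransferase, at -0.37 (adjusted p = 0.00779). The sulfate transporter Slc26a2 (-0.43, adjusted p = 0.0264) and the chondroitin sulfotransferase Chst15 (-0.61, adjusted p = 0.0445) were also lower.

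Sulfotransferases were also found among the enzyme genes that were higher. Chst2, which sulfates the N-acetylglucosamine of keratan sulfate, stood at 67.6, 62.0 and 64.9 CPM in WT and 134, 132 and 136 CPM in TCKO. It rose 2.07-fold with little spread in either genotype (log2 fold change 1.05 ± 0.07, edgeR adjusted p = 0.000127). Chst11, which sulfates chondroitin, was higher by 0.81 (adjusted p = 0.0101), and Ust, which sulfates its uronic acid, by 0.72 (adjusted p = 0.0213). Chst1, the other main keratan sulfotransferase, was higher by 0.89 (adjusted p = 0.0431) and the chondroitin synthase Chsy1 by 0.35 (adjusted p = 0.0483). The summed CPM of the list was 1936 to 2061 in every library. Leaving out 1 library left 3 to 6 genes lower and 2 to 5 higher (3.98% to 10.9% and 4.36% to 11.7% of all tested genes). The count lower was 3 without WT replicate 1, WT replicate 2, TCKO replicate 1 or TCKO replicate 2, and the count higher was 2 or 3 without the same libraries. Without any 1 of these 4 libraries the calls of Slc26a2 (highest adjusted p = 0.107), Chst15 (0.163), Ust (0.0819) and Chsy1 (0.176) were lost, that of Chst15 also without TCKO replicate 3. The call of Chst1 was lost without WT replicate 1, WT replicate 2 (0.154), TCKO replicate 1 or TCKO replicate 3. Chst5, another keratan sulfotransferase, was removed by the filter and had 1, 0 and 2 counts in the WT libraries and 24, 25 and 9 in TCKO. With the replicate block 8 were lower and 4 higher, where 11.5% and 12% of all tested genes were. Chsy1 then had an adjusted p of 0.0588. The dermatan epimerase Dse, at -0.33 (adjusted p = 0.0871) without the block, had one of 0.0311 with it. With the block and replicates 1 and 2 summed 2 were lower and 3 higher (4.09% and 4.22% of all tested genes). Dse had an adjusted p of 0.126 in that fit.

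Fibrillar collagens are what these proteoglycans bind. Of 10 tested, 5 were lower (50%) and 1 higher (10%), beside the 8.63% and 9.07% of all tested genes. The median log2 fold change of the list was -0.68. The cartilage collagens fell most, Col2a1 at -3.13 (adjusted p = 9.69e-05, edgeR), Col11a2 at -3.02 (adjusted p = 0.000455) and Col11a1 at -2.10 (adjusted p = 0.000130). Col1a1, the main collagen chain of bone, was at 22334 ± 853 CPM in WT and 14585 ± 2818 CPM in TCKO (-0.61, adjusted p = 0.0380). That call was lost without WT replicate 1 (adjusted p = 0.134) and in 3 other such fits, without WT replicate 2, TCKO replicate 1 or TCKO replicate 2. Col5a1, which sets the width of type I fibrils, was lower, at -0.75 (adjusted p = 0.00190), and the minor chain Col5a3 was higher by 1.61 (adjusted p = 0.00290). Col1a2 (-0.85, adjusted p = 0.0676), Col5a2 (-0.46, adjusted p = 0.0678) and Col3a1 (0.56, adjusted p = 0.223) did not pass. Under the block, Col1a2 (adjusted p = 0.0180) and Col5a2 (0.0188) did. With replicates 1 and 2 summed and the block, neither did (0.107 and 0.174), nor did Col1a1 (0.246) and Col5a1 (0.0550).

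Of 8 proteases that cleave these proteoglycans, 2 were lower (25%) and 1 higher (12.5%), beside the 8.63% and 9.07% of all tested genes. The median log2 fold change of the list was 0.05. Adamts5, an aggrecanase, stood at 871, 877 and 463 CPM in WT and 178, 185 and 176 CPM in TCKO, and its log2 fold change was -2.04 ± 0.23 (edgeR adjusted p = 0.00127). Mmp2, a gelatinase, was lower, at -0.83 (adjusted p = 0.00511). Mmp3, a stromelysin, had 4, 5 and 10 counts in the WT libraries and 169, 116 and 27 in TCKO and was higher by 4.06 (adjusted p = 0.00998), although it did not pass without WT replicate 2 (adjusted p = 0.0566) or WT replicate 1. Mmp3 entered the test through the TCKO libraries, where it was higher, so its call adds no support. Bmp1, which trims the propeptide of biglycan, gave 0.50 (adjusted p = 0.0546, and 0.0207 with the replicate block). Adamts4 gave 0.82 (adjusted p = 0.0606, and 0.00639 with the block), and Htra1 -0.96 (adjusted p = 0.0749, and 0.0334 with the block). With the block the counts were 3 lower and 3 higher, where 11.5% and 12% of all tested genes were. With the block and replicates 1 and 2 summed the counts were 2 and 0 (4.09% and 4.22% of all tested genes). In that fit Bmp1 (adjusted p = 0.177), Adamts4 (0.0666), Htra1 (0.0890) and Mmp3 (0.0594) did not pass.

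Of 12 genes of signalling partners, 2 were lower (16.7%) and 4 higher (33.3%), beside the 8.63% and 9.07% of all tested genes. The median log2 fold change of the list was -0.07. Tlr4, an innate immune receptor that soluble biglycan and decorin bind, stood at 31.6, 35.9 and 31.5 CPM in WT and 8.90, 8.45 and 4.49 CPM in TCKO, and its log2 fold change was -2.18 ± 0.23 (edgeR adjusted p = 0.000830). P2rx7, a second receptor of biglycan, was lower, at -1.08 (adjusted p = 0.0313), a call lost without WT replicate 2 (0.106), WT replicate 3, TCKO replicate 1 or TCKO replicate 2. Met, a receptor tyrosine kinase bound by decorin, stood at 8.72, 8.48 and 7.76 CPM in WT and 28.9, 26.5 and 25.5 CPM in TCKO and rose 3.23-fold (adjusted p = 0.000142). Kdr, a VEGF receptor, had 3, 4 and 13 counts in the WT libraries and 293, 266 and 837 in TCKO (log2 fold change 6.12 ± 0.67, adjusted p = 0.00111). Kdr entered the test through the TCKO libraries, where it was higher, so its call adds no support. Its log2 fold change was 7.08 without WT replicate 3 and 5.44 without TCKO replicate 3. Among the TGF-β ligands, which decorin, biglycan and fibromodulin can hold in the matrix, Tgfb1 was higher by 0.72 (adjusted p = 0.00318) and Tgfb2 by 0.47 (adjusted p = 0.00871). Tgfb3 gave -0.54 (adjusted p = 0.0562, and 0.00288 with the replicate block) and Lrp1 -0.37 (adjusted p = 0.0592, and 0.0346 with the block). The epidermal growth factor receptor Egfr, another kinase bound by decorin, gave 0.08 (adjusted p = 0.581). Under the block 4 genes of the list were lower and 4 higher, where 11.5% and 12% of all tested genes were. With the block and replicates 1 and 2 summed 1 was lower and 3 higher (4.09% and 4.22% of all tested genes). In that fit the adjusted p was 0.0622 for Tgfb3, 0.330 for Lrp1, 0.0902 for P2rx7 and 0.0586 for Tgfb2.

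Markers of the cell types that a calvarial culture can hold moved with the genotype or with replicate 3, and their part in the results on the proteoglycans was not tested. Of all tested genes 8.63% were lower, 9.07% higher and 3.19% lower by more than 2-fold, to be read beside each count of markers. Of 8 tested osteoblast markers, 3 were lower (Runx2 -0.45, Alpl -3.54 and Col1a1) and 1, Spp1 (osteopontin, 2.62), was higher, and Bglap (osteocalcin) had at most 2 counts. Col1a1 and Runx2 were thus present in all libraries, and the counts of the late osteoblast marker Bglap were at or near 0. How reads shared between genes were counted is not given in the sources used here. All 8 chondrocyte markers were lower by more than 2-fold, with summed levels of 6340 to 8321 CPM in WT and 697 to 989 CPM in TCKO, and none was at 0 in any library. Of 6 tested tendon and fibroblast markers, 1 was lower (Tnmd, -1.03) and 1 higher (Dpp4, 3.17), with summed levels of 297, 294 and 192 CPM in WT and 171, 171 and 125 CPM in TCKO. Dpp4 had 4, 1 and 1 counts in the WT libraries, near the floor, and 17, 13 and 26 in TCKO, and without WT replicate 1 its log2 fold change was 4.14. Dpp4 entered the test through the TCKO libraries, where it was higher, so its call adds no support. Of 7 macrophage and osteoclast markers, 2 were lower (Adgre1 -1.44 and Csf1r -1.21), with sums of 687, 697 and 392 CPM in WT and 503, 533 and 157 CPM in TCKO. In CPM the sums of the tendon and fibroblast and the macrophage and osteoclast markers were lowest in replicate 3 of each genotype. So were Bgn, Dcn, Lum, Aspn, Omd and Ogn, and the sums of the fibrillar collagens and of the proteases. Tnmd, however, was highest in replicate 3 among the TCKO libraries, at 52.5 CPM. The osteoblast and adipocyte sums were also lowest there in CPM, but not always per length. In RPKM the osteoblast sum was 4870, 4694 and 5128 in WT replicates 1, 2 and 3. The adipocyte sum was 1.78, 1.85 and 1.99 RPKM in TCKO replicates 1, 2 and 3. Sp7 (-1.59, edgeR adjusted p = 0.0877) gave -0.99 without WT replicate 3 and -2.41 without TCKO replicate 3. Among endothelial markers only Kdr was tested, and Pecam1, Cdh5, Tek and Emcn had at most 8 counts in a library. Of 2 tested muscle markers 1 (Acta1, 3.14) was higher and of 2 tested adipocyte markers 1 (Lpl, -0.93) was lower, while Adipoq and Plin1 had 0 counts in all libraries. Under the replicate block 5 osteoblast markers, 6 macrophage and osteoclast markers and 3 tendon and fibroblast markers were lower (11.5% of all tested genes). With the block and replicates 1 and 2 summed these counts were 2, 3 and 1 (4.09% of all tested genes). Without WT replicate 3 the log2 fold change of Alpl was -2.69 and that of Acta1 3.79. The calls of Matn1 (highest adjusted p = 0.140), a chondrocyte marker, and of Tnmd (0.0575), Csf1r (0.0955) and Lpl (0.0895) were lost without WT replicate 1, WT replicate 2, TCKO replicate 1 or TCKO replicate 2, that of Matn1 also without WT replicate 3. Col1a1, Col1a2, Col2a1 and Col11a2 are on the list of fibrillar collagens as well, and Kdr is on that of signalling partners.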

How the data were processed

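RNA was measured by poly(A) sequencing in 3 WT and 3 TCKO libraries of primary calvarial osteoblasts. The authors aligned reads to GRCm38 (Ensembl 99 annotation) with STAR 2.7.0e and summed the reads on the exons of each gene with featureCounts 2.0.0, as the submitters' processing notes and the study's methods state. The deposited values are raw counts for 55471 genes, with summed exon lengths in bp. How strand and shared reads were treated is not given in the sources used here. Symbols were added by identifier for 55144 genes (99.4%). No column was left unassigned (0 columns).

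Counts were analysed in R 4.3.3 with edgeR 4.0.16: filterByExpr, TMM factors, and the two-sided quasi-likelihood test of genotype over 6 libraries, with Benjamini-Hochberg adjustment over 13826 tested genes. A gene passed at an adjusted p under 0.05. Standard errors came from the F statistic. CPM and RPKM used TMM-scaled totals and the deposited lengths. Within-replicate differences used a pseudocount of 2 CPM. Intervals and floors cover counting error or the spread between libraries only. The fit was tested on simulated data.

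Genotypes and replicate numbers are those of the sample titles. Deviations from the group means correlated across genes, which are not independent, at 0.238, 0.249 and 0.372 for libraries of the same number 1, 2 and 3. As each was over 0.1, the numbers were treated as pairs. The check does not tell numbers 1 and 2 apart, because replicate 3 stands apart in both genotypes. WT replicate 1 with TCKO replicate 2 gave 0.221, and WT replicate 2 with TCKO replicate 1 gave 0.263. Pairs of replicate 3 with another number gave -0.314 to -0.281.

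The named genes are the 10 members, 8 other family genes, the Tet genes, neighbours in the clusters, and from each list all genes that passed and up to 4 others. The lists were enzymes of sugar chains, fibrillar collagens, proteases, signalling partners, and markers of osteoblasts, chondrocytes, tendon and fibroblasts, macrophages and osteoclasts, endothelium, muscle and adipocytes. Members and lists were chosen with earlier results of these data known. One listed marker is not reported here. Alternatives were RLE factors, no filter beyond 1 count, a mean RPKM over 0.24, DESeq2 1.42.0, a robust fit, a replicate block, a batch term for replicate 3, each library left out, replicates 1 and 2 only, and replicates 1 and 2 summed without or with a block. Promoters were RefSeq windows of 250 bases before the start (GRCm38.p6), the 50 bases after it left out, found for 7 members. Protein sequence features and the methylation and chromatin data of the study were not analysed here.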

Additional observations from a re-analysis of the deposited data

How the results depend on the processing

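Over 16 alternatives the log2 fold change of every member stayed negative, and no member was higher in any of them. Fmod, Omd, Podn and Podnl1 passed in all 16. Ogn missed in 1, Prelp in 2 and Bgn in 5, while Dcn passed in 5, Lum in 4 and Aspn in 6. The fits that Dcn, Lum and Aspn passed include that of replicates 1 and 2 only. These replicates were close to each other (chi-square divided by its degrees of freedom 1.69 in WT and 2.04 in TCKO). That fit counts them as separate samples, which the sources used here do not state. Of the members, 4 were lower with replicates 1 and 2 summed (2 samples against 2), where 1.22% of all tested genes were. With 1 library left out 6 to 8 members were lower (3.98% to 10.9% of all tested genes), and with the replicate block 10 (11.5%). The block made Dcn, Lum and Aspn pass and changed no other member's call. The number that passed with a fall of more than 2-fold was 5 to 6 with 1 library left out. For the enzymes of sugar chains, the number lower was 8 with the replicate block (where 11.5% of all tested genes were lower), 8 with the batch term (15.1%), 3 to 6 with 1 library left out (3.98% to 10.9%), 10 with replicates 1 and 2 only (22.5%), 1 with them summed (1.22%) and 2 with them summed and a block (4.09%). The number of these enzymes higher was 2 to 5 with 1 library left out, where 4.36% to 11.7% of all tested genes were. It was 1 with replicates 1 and 2 summed (1.57% of all tested genes) and 3 with a block added to the sum (4.22%). The fits without a library or with sums have fewer samples. Without length scaling Dcn was sixth and Aspn seventh in WT. With a pseudocount of 0.5 CPM the within-replicate difference of Omd was -3.20 (replicates 1 and 2) and -3.65 (replicate 3). At 11 to 36 counts, Omd had the lowest TCKO counts of the members, and so the largest counting error relative to its level. The SE of its log2 fold change (0.41) was nevertheless below those of Aspn (0.51), Dcn (0.47) and Lum (0.45).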
